A study of Homo sapiens with 10 samples.

Results

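The linker histone H1 genes described here are H1-1, H1-2, H1-3, H1-4, H1-5 and H1-10, and they were found as every probe set whose platform annotation gives exactly 1 gene symbol among these names. Each gene had 1 probe set, so 6 of the 41091 probe sets with 1 symbol were members, and 0 probe sets listed a member together with another gene. They are 208484_at for H1-1, 209398_at for H1-2, 214537_at for H1-3, 208553_at for H1-4, 214534_at for H1-5 and 204805_s_at for H1-10. Expression was measured on Affymetrix HG-U133 Plus 2.0 arrays in IMR90 cells, a normal human lung fibroblast line. Senescent cells (5 arrays) had reached 90 population doublings by passaging until growth stopped and had then stayed in their dishes for 2 weeks, and proliferating cells (5 arrays) were at 28 population doublings. All cells grew in 3% oxygen and 10% serum, carried no engineered change that the labels name, and came from the same line, so growth state, passage number and time in culture cannot be told apart. The comparison asks how expression differs between senescent and proliferating fibroblasts.

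Linker histones bind the nucleosome where DNA enters and leaves it and help to fold the chromatin fibre. H1-1 to H1-5 lie in the large histone gene cluster of chromosome 6 and are replication-dependent: they are transcribed mainly in S phase, and their mRNAs usually end in a stem-loop that the protein SLBP binds instead of a poly(A) tail. H1-10 lies outside that cluster, on chromosome 3, and is a replication-independent variant with a polyadenylated mRNA. Standard Affymetrix 3' labelling usually starts from poly(A) tails, and the labels do not name the primer, so how much of the stem-loop mRNA was read was not tested. In bulk RNA, fewer cells in S phase and less H1 mRNA per cell cannot be told apart.

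The median log2 value of an array was 3.05 to 3.12, and arrays of a state correlated at 0.992 to 0.997 over tested probe sets. All 10 fibroblast markers lay above the 60th percentile on every array, while all 5 endothelial and all 4 measured leukocyte markers lay below it on every array. Of the smooth muscle genes 3 of 4 lay above it on every array, and of the epithelial markers 2 of 6. Some markers moved with the states: 2 of 6 epithelial markers were lower in senescent cells (EPCAM at -2.31 and KRT19 at -1.26, senescent minus proliferating log2) and 1 higher (SFTPC at 0.34). Of 4 smooth muscle genes 1 was lower (MYH11 at -0.72) and 1 higher (ACTG2 at 0.53), and of 10 fibroblast markers 4 were lower and 3 higher, FAP (-1.69) and LUM (1.49) by the most. The summed log2 values of the 6 epithelial markers were 26.0 to 28.2 on senescent and 29.6 to 30.5 on proliferating arrays, and did not overlap. Those of the smooth muscle genes were 27.6 to 28.1 on senescent and 27.5 to 28.7 on proliferating arrays, and those of the fibroblast markers 120.4 to 121.7 on senescent and 119.3 to 122.0 on proliferating arrays. Of the endothelial and leukocyte markers 1, PTPRC, entered the test and it did not pass. The part of these markers in the H1 differences was not tested. Whether the arrays of a state stem from separate cultures is not stated. All p-values therefore reflect array-to-array spread that may be technical, and the number of arrays limits the precision. Of 2 controls of RNA integrity 1 moved with the states: the ACTB control's 3' minus 5' log2 signal was 2.32 ± 0.10 in senescent and 2.07 ± 0.14 in proliferating cells (SD, n = 5 each, exact permutation p = 0.00794). The same measure of the GAPDH control was 0.12 ± 0.09 in senescent and -0.03 ± 0.18 in proliferating cells, a difference of 0.15 that did not pass (exact permutation p = 0.135). The part of RNA integrity in the H1 differences was not tested beyond the fits with the ACTB control as a covariate, which are given beside them.

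The 5 H1 genes of chromosome 6 were lower in senescent cells, by 4.71-fold for H1-2 and by 30.1-fold to 58.8-fold for H1-1, H1-3, H1-4 and H1-5, and the senescent and proliferating arrays did not overlap for any of them. H1-10 lay at the low end of the scale in both states. A probe set entered the test when at least 5 arrays placed it over their own 40th percentile, and differences are senescent minus proliferating log2 means from limma with Benjamini-Hochberg adjustment over 32732 tested probe sets. Of these, 26.2% were lower and 26.9% higher in senescent cells at an adjusted p under 0.05, 53.0% in either direction, and for 21.3% all senescent values lay below all proliferating values. The median difference over tested probe sets was 0.03. H1-5 passed the filter through its 5 proliferating arrays alone and H1-4 through those and 3 senescent ones, so their presence among the tested members required or favoured a difference. Without any filter, the 5 genes passed as well (adjusted p at most 2.52e-06) and H1-10 did not, against 14.8% of 54613 probe sets lower.

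H1-1, which in many adult tissues is among the less used somatic subtypes, had log2 values of 5.49, 5.57, 5.11, 3.40 and 5.35 on senescent arrays 1 to 5, against 10.78, 11.22, 10.65, 10.72 and 10.94 on proliferating arrays 1 to 5. The gap between the lowest proliferating and the highest senescent array was 5.08, and senescent 4 stood 1.71 below the next lowest array of its state. The means were 4.98 ± 0.90 in senescent and 10.86 ± 0.23 in proliferating cells (SD, n = 5 each), so H1-1 fell by 5.88 on the log2 scale (SE 0.38, limma's adjusted p = 4.99e-07, exact permutation p = 0.00794). This permutation p is the smallest that 5 against 5 arrays can give, and it was the same for the other 4 genes of chromosome 6. Without senescent 4 the difference was -5.48, and with the ACTB control as a covariate it was -5.85. Of all tested probe sets, 26 fell by at least as much as H1-1, itself included.

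H1-3, a somatic subtype, had 4.46, 4.61, 4.24, 4.22 and 4.86 on senescent arrays 1 to 5, against 10.06, 10.62, 9.78, 10.10 and 10.27 on proliferating arrays 1 to 5. Both states were tight, and the whole senescent range lay around the 60th percentile of the arrays, with 1 of 5 senescent arrays above it. H1-3 averaged 4.48 ± 0.27 in senescent and 10.17 ± 0.31 in proliferating cells (SD, n = 5 each) and fell by 5.69 (SE 0.17, limma's adjusted p = 2.17e-09), which leaves 1.94% of the proliferating signal. With the ACTB covariate it fell by 5.23. Its low senescent signal may also limit the size of the fall.

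H1-5, another replication-dependent subtype, had 1.82, 1.81, 1.82, 1.86 and 1.97 on senescent arrays 1 to 5, against 7.24, 8.40, 7.28, 6.86 and 8.17 on proliferating arrays 1 to 5. All senescent values lay between percentiles 5.45 and 8.93 of their arrays, at the low end of the scale, where a further fall could not be seen. The means were 1.86 ± 0.07 in senescent and 7.59 ± 0.66 in proliferating cells (SD, n = 5 each), and they differed by -5.74 on the log2 scale (SE 0.27) with limma's adjusted p = 5.42e-08. The size of this difference depends on where the authors' background correction places that end. With the ACTB covariate it was -5.14.

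H1-4, one of the subtypes found in most human cell types, had 2.78, 2.31, 2.21, 2.91 and 2.79 on senescent arrays 1 to 5, against 7.43, 8.10, 7.04, 7.33 and 7.68 on proliferating arrays 1 to 5. No senescent array reached the 60th percentile, and 3 of 5 lay above the 40th. The means of 2.60 ± 0.32 in senescent and 7.51 ± 0.40 in proliferating cells (SD, n = 5 each) gave a difference of -4.91 (SE 0.21, limma's adjusted p = 2.70e-08), or -4.35 with the ACTB covariate. These senescent values lay between percentiles 17.9 and 46.5 of their arrays. The fall may be cut short here, and its size depends on the background correction too.

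H1-2, another subtype found in most human cell types, kept a clear signal in senescent cells. It had 8.38, 8.37, 8.07, 8.52 and 8.64 on senescent arrays 1 to 5, against 10.50, 10.89, 10.41, 10.62 and 10.76 on proliferating arrays 1 to 5. The lowest proliferating array lay 1.77 above the highest senescent one, and the senescent arrays still placed H1-2 between percentiles 77.1 and 80.9 of all probe sets. Averages of 8.40 ± 0.21 in senescent and 10.63 ± 0.20 in proliferating cells (SD, n = 5 each) gave a difference of -2.24 (SE 0.12) with limma's adjusted p = 1.39e-07, so that 21.2% of the proliferating signal was left. With the ACTB covariate the difference was -1.86. A fall of at least this size was seen in 2.67% of tested probe sets, against 0.376% for H1-4 and 0.0794% for H1-1.

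H1-10 lay below the 40th percentile on all 10 arrays and was not tested with the filter. Its log2 values were 1.55, 1.45, 1.34, 1.55 and 1.36 on senescent arrays 1 to 5, against 1.57, 1.66, 1.97, 1.55 and 2.02 on proliferating arrays 1 to 5, and the states overlapped. No value exceeded percentile 11.6 of its array, so this probe set, whose name marks it as shared between similar transcripts, gave no level from which a change could be read. The difference of -0.30 did not pass limma without the filter (adjusted p = 0.0563; exact permutation p = 0.0238, unadjusted). Among linker histone genes outside the 6 members, the testis genes H1-6 and H1-7 and the oocyte gene H1-8 were measured by 6 probe sets, all below the 40th percentile on every array, with values of 1.79 to 2.62 in senescent and 1.78 to 2.46 in proliferating cells.

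**Figure D1:**
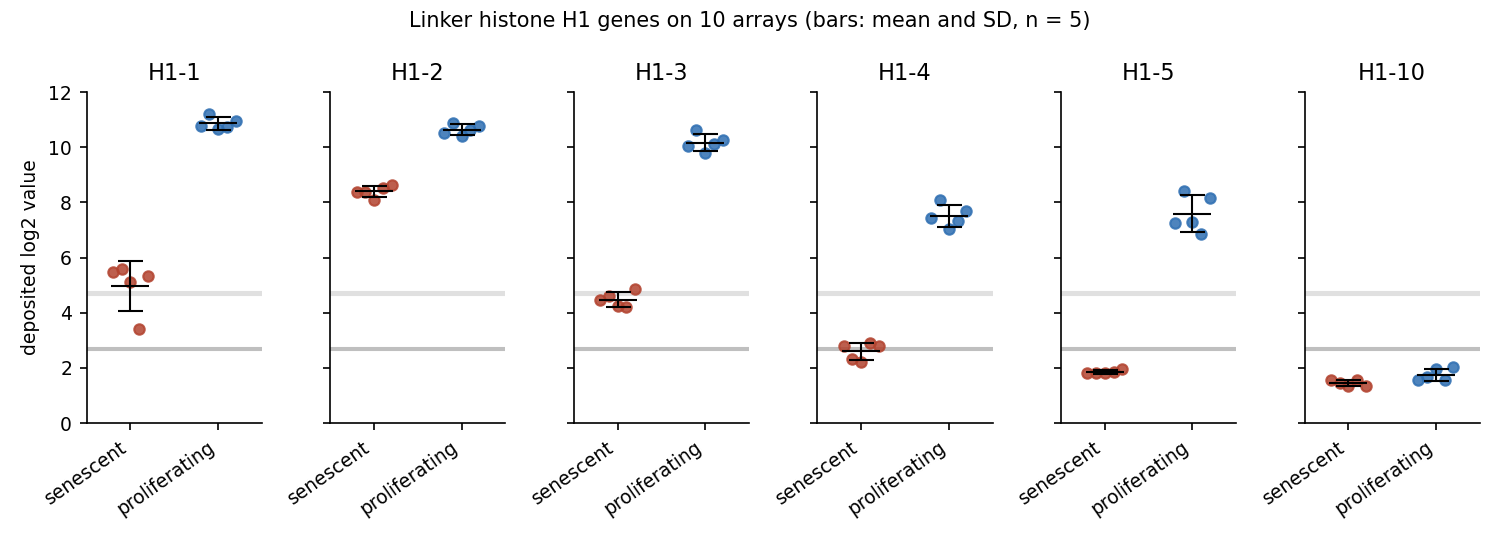
Deposited log2 value (vertical axis) of each linker histone H1 gene on the 5 senescent and 5 proliferating arrays. Points are arrays in replicate order, black bars the mean and SD, the dark grey band the range of the arrays' 40th percentiles and the light grey band that of their 60th percentiles; H1-2 stayed above 8 in senescent cells, H1-5 dropped below both bands and H1-10 lay below them in both states.

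The measured signals of the 5 tested genes did not fall by equal amounts. For each of the 10 pairs, the log2 difference between both genes was taken within each array and compared between states with an exact two-sided permutation test, adjusted over the 10 pairs. This cancels any scaling that shifts a whole array and sets no probe set's level against another's. It does not cancel differences between probe sets in background or in how strongly signal follows mRNA amount, and these were not tested. The H1-2 signal fell less than that of each of the other 4. The differences were 3.64 (SE 0.44) against H1-1, 3.50 (SE 0.24) against H1-5, 3.45 (SE 0.11) against H1-3 and 2.68 (SE 0.13) against H1-4. Each had permutation p = 0.00794 and adjusted p = 0.0159, without overlap between states. H1-4 and H1-5 were at the low end of the scale in senescent cells, so any fall of theirs beyond it is not in these values. The H1-2 minus H1-3 difference, for example, was 3.92 ± 0.22 in senescent and 0.46 ± 0.13 in proliferating cells (SD, n = 5 each).

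The measured fall of H1-4 was smaller than that of H1-3 by 0.78 (SE 0.18, adjusted permutation p = 0.0159), than that of H1-5 by 0.82 (SE 0.22, adjusted permutation p = 0.0265) and than that of H1-1 by 0.96 (SE 0.50, adjusted permutation p = 0.034). Because the senescent signal of H1-4 was at the low end of the scale, its fall may be cut short there, and these values do not show that H1-4 mRNA fell less than the others. The pairs with H1-5 and H1-1 overlapped between states, and these calls were lost without senescent 4 (0.74, adjusted permutation p = 0.0529, and 0.49, adjusted permutation p = 0.0567). Without proliferating 5 both were lost as well (0.72, adjusted permutation p = 0.0529, and 0.99, adjusted permutation p = 0.068), and the pair with H1-1 also without each of the remaining proliferating arrays in turn (adjusted permutation p up to 0.102). Differences among H1-1, H1-3 and H1-5 did not pass: 0.19 (SE 0.35) for H1-3 minus H1-1, 0.14 (SE 0.46) for H1-5 minus H1-1 and 0.05 (SE 0.23) for H1-3 minus H1-5 (permutation p = 0.865, 0.833 and 0.857). The pairs with H1-5 carry the same limit and depend, like those with H1-4, on the background correction. The H1 genes are close paralogues, and whether probes of 1 gene also read another was not tested.

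**Figure D2:**
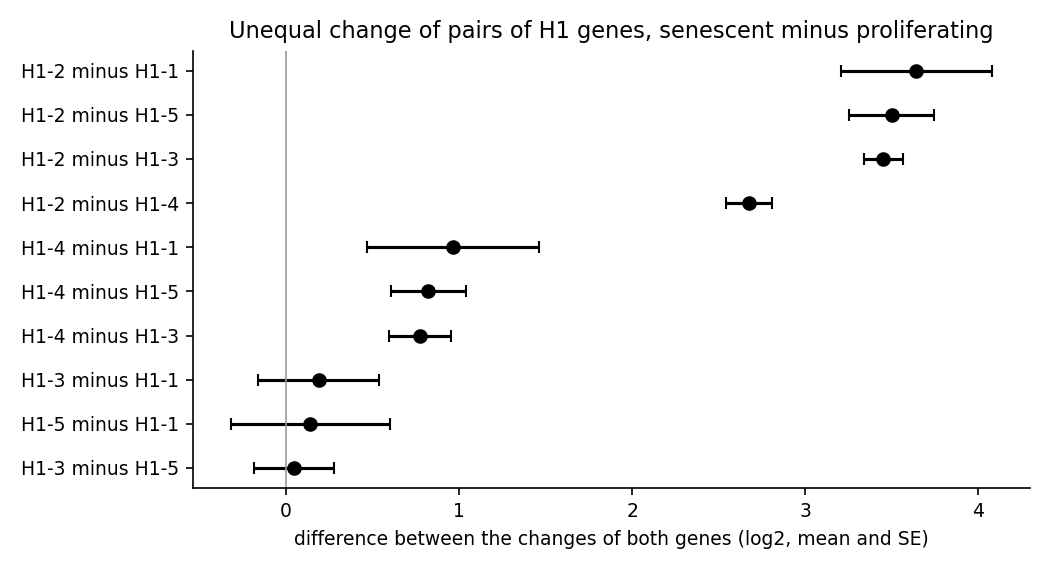
Difference between the senescent minus proliferating changes of 2 H1 genes (log2, horizontal axis) for each of the 10 pairs, with SE bars. A positive value means that the gene named first had the smaller measured fall, which for H1-4 and H1-5 may be cut short at the low end of the scale; the 4 pairs with H1-2 lie between 2.68 and 3.64 and the other 6 below 1.

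The promoters of these genes are shown because the 5 genes of chromosome 6 fell together and H1-10 is set apart from them in position and mRNA type. Each line gives the 250 bases before the annotated start, from RefSeq on GRCh38.p14, 5′ to 3′ on the gene's strand. The windows are chr6:26017788-26018037 (minus strand) for H1-1, chr6:26056471-26056720 (minus) for H1-2, chr6:26234988-26235237 (minus) for H1-3, chr6:26156079-26156328 (plus) for H1-4, chr6:27867589-27867838 (minus) for H1-5 and chr3:129316287-129316536 (minus) for H1-10. Capitals mark matches on either strand to 4 motifs. The first, AAACACA, is known as the H1 box of linker histone promoters. The second is CCAAT, a common promoter element bound by the factor NF-Y. The third, TATAAA, is the core of the element near the start that the TATA-binding protein recognises. The last is GGGCGG, the GC box bound by factors of the SP family, and none of the 4 motifs overlap each other in these windows.
H1-1: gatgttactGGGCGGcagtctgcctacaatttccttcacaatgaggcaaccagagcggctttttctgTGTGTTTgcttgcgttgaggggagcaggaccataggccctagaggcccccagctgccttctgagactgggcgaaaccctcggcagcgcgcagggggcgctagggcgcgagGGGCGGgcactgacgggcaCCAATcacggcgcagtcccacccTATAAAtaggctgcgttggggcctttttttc
H1-2: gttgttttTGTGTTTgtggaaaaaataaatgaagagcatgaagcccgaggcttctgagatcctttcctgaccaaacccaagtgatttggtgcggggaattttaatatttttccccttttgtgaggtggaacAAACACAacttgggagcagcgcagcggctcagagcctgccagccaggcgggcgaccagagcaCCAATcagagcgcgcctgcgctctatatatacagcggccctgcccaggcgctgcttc
H1-3: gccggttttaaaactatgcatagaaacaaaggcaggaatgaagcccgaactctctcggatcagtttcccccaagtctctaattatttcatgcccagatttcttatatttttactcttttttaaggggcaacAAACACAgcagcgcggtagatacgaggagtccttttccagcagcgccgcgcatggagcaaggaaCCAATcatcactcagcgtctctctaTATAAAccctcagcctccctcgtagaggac
H1-4: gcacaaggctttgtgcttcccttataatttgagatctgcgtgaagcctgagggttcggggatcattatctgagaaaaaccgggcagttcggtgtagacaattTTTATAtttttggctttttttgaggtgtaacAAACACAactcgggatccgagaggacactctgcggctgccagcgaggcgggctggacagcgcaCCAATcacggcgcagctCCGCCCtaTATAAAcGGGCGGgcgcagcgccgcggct
H1-5: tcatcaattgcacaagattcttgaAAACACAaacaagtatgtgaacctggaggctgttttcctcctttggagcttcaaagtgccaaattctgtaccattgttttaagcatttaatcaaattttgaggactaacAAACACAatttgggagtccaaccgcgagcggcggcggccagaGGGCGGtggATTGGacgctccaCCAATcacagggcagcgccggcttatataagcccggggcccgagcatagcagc
H1-10: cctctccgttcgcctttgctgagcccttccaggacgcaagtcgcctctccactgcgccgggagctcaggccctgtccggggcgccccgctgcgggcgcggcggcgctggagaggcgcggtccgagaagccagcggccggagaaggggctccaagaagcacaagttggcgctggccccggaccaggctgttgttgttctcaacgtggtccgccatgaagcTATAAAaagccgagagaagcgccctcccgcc

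The H1 box stood on the gene's strand with its first base 119 bases before the start in H1-2 and H1-3 and 117 bases before it in H1-4 and H1-5. CCAAT stood 53 to 57 bases before the start in H1-1 to H1-5. H1-1 had no H1 box on its own strand in this window and held the reverse complement 183 bases before the start. The longest stretch shared by H1-2, H1-3, H1-4 and H1-5 was AACAAACACA, which contains the H1 box and was found in 29 of 35116 promoter windows of this length, and the longest shared by H1-1 to H1-5 was ACCAATCA, found in 297. H1-10 held TATAAA 31 bases before its start and none of the other motifs.

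Over all 35116 windows, AAACACA was found on either strand in 4.82%, CCAAT in 32%, TATAAA in 10.7% and GGGCGG in 42.6%. H1 box and CCAAT together on the gene's strand occurred in 0.481% of windows and in 4 of the 6 H1 genes. The genes with an H1 box at 117 or 119 bases included H1-2, whose difference of -2.24 was the smallest of the 5, and H1-5 with -5.74. H1-1, which lacked it there, fell by 5.88. The part of these motifs in the H1 differences was not tested. TATAAA was found on either strand in H1-1, H1-3, H1-4 and H1-10 and not in H1-2 or H1-5. Only exact letters were searched, so variants of a motif were not counted, such as the tatata stretches near the start of H1-2 and H1-5. A match is a description of the letters and does not show that a factor binds there.

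On chromosome 6, the nearest protein-coding histone genes on each side of an H1 gene, in RefSeq order on GRCh38.p14, did not all move as it did. H1-4 lies between the H2A gene H2AC6 and the H2B gene H2BC5, both read here by probe sets named as shared. H2AC6 rose by 5.06 (adjusted p = 1.01e-09). H2BC5 fell by 2.31 (adjusted p = 3.17e-08), while its other probe set passed in the opposite direction. H1-3 lies beside the H3 gene H3C6, which rose by 3.59 (adjusted p = 3.31e-10). H1-5 lies between H2AC16, which fell by 1.67 (adjusted p = 0.0391), and H3C11, which fell by 6.16 (adjusted p = 1.08e-08). For H2AC16 the proliferating arrays scattered widely, with 5.30 ± 0.19 in senescent and 6.97 ± 1.47 in proliferating cells (SD, n = 5 each). H1-2 lies beside H3C3, which fell by 3.76 (adjusted p = 2.71e-07), and H1-1 lies between H2BC1 and H3C1, neither of which passed the filter. The neighbours on the other side of H1-2 and H1-3, H4C3 and H4C6, had no probe set with 1 symbol.

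Among proliferating arrays, the H1 genes varied together. Proliferating 2 was the highest of the 5 for all 5 tested H1 genes, by 0.26 to 0.81 above the proliferating mean, whereas 20.2% of tested probe sets were highest on that array. Proliferating 3 lay 0.21 to 0.48 below the mean for each of them. Core histone genes were likewise highest on proliferating 2 in 16 of 30 cases, with a median deviation of 0.23, against 17.9% of all tested genes. Of 14 S phase genes, which serve DNA replication and proliferation, 1 was highest on proliferating 2, and their median deviation there was -0.12. Proliferating 2 also had the lowest ACTB 3' minus 5' signal of all arrays, 1.85, against 2.05 to 2.19 on the other proliferating arrays, and the part of RNA integrity in this pattern was not tested. Without proliferating 2 and senescent 5 together, all 5 genes remained lower in senescent cells.

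**Figure D3:**
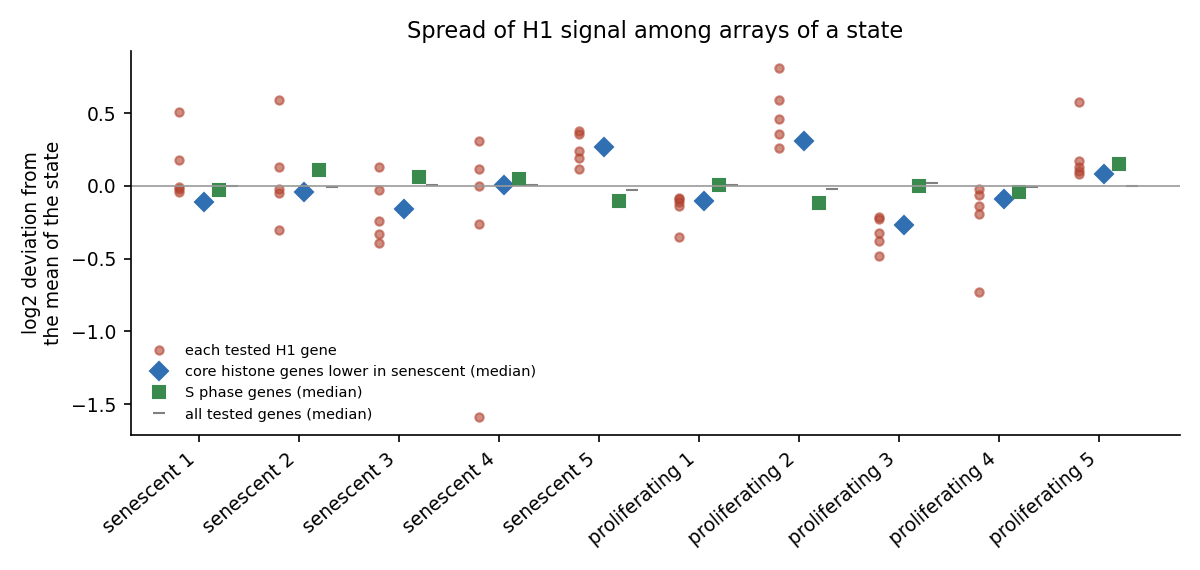
Log2 deviation of each array from the mean of its state (vertical axis) for each tested H1 gene (red points), with the medians over 22 core histone genes lower in senescent cells (blue), 14 S phase genes (green) and all tested genes (grey). On proliferating 2 all 5 H1 genes lie 0.26 to 0.81 above the mean while the S phase median is -0.12; the single point near -1.59 is H1-1 on senescent 4.

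Genes that act on histone transcripts and on H1 protein are described by their tested probe set with the highest mean. Of 12909 genes so represented, 29.8% were lower and 30.5% higher in senescent cells, with a median difference of 0.04. Among 9 genes of histone gene transcription 5 fell and 0 rose (median -1.13). CCNE2 and CDK2, an E-type cyclin and the kinase it activates, differed by -3.45 (adjusted p = 5.01e-08) and -2.29 (adjusted p = 1.67e-08), and the S phase transcription factor gene E2F1 fell by 2.38 (adjusted p = 1.01e-06). NPAT, the histone locus coactivator that cyclin E and CDK2 phosphorylate, had 7.33 in senescent and 8.51 in proliferating cells and fell by 1.18 (adjusted p = 8.12e-07). HINFP, which drives H4 genes, differed by 0.38 and did not pass (adjusted p = 0.0975). The other E-type cyclin gene of the list, CCNE1, differed by -0.32 and did not pass either (adjusted p = 0.144).

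Of 16 genes of histone pre-mRNA processing and decay 11 fell and 2 rose (median -0.69). ERI1, an exonuclease that trims the stem-loop end, fell by 1.61 (adjusted p = 2.09e-07), and LSM11, a subunit of the U7 snRNP, and ZNF473, whose product binds that particle, differed by -1.31 (adjusted p = 2.63e-04) and -0.91 (adjusted p = 0.00617). SLBP, named with NPAT, HINFP and CCNE1 after the values were seen, fell by 0.69 (adjusted p = 2.89e-07). The 2 that rose were LSM10 (0.72), another U7 snRNP gene, and the terminal uridylyltransferase gene TUT7 (0.35). With the ACTB covariate 9 fell and 2 rose.

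Chaperones of H1 and proteins that compete with it for nucleosomes fell in 11 of 12 cases with 0 higher (median -0.96). The high-mobility-group gene HMGB2 fell by 3.48 (adjusted p = 4.18e-11), NASP, a histone chaperone that also binds H1, fell by 2.30 (adjusted p = 5.42e-08), and PARP1, which displaces H1 at promoters, fell by 1.84 (adjusted p = 8.98e-08). Partners of H1 in compact chromatin fell in 10 of 10 tested cases (median -0.80). Without any filter 10 of all 12 measured partners were lower (median -0.69), against 14.8% of probe sets lower. With the ACTB covariate 9 fell, as with the replicate block. DNMT3B, 1 of the 10, was below the 60th percentile on every array of both states. Among the 10, the H3K27 methyltransferase gene EZH2 differed by -4.18 (adjusted p = 2.57e-08). SUV39H1, an H3K9 methyltransferase gene, and DNMT1, a DNA methyltransferase gene, differed by -2.49 (adjusted p = 1.32e-06) and -1.71 (adjusted p = 3.18e-07).

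Core histone genes fell in 22 of 30 tested cases and rose in 5 (median -2.41). The filter favoured a difference for some of them: of the 22, H2BC15 and H3C7 passed it through proliferating arrays alone and H2BC14, H3C2 and H3C8 with fewer than 5 senescent arrays, and of the 5, H2BC4 passed with fewer than 5 proliferating arrays. Without any filter 22 of all 36 measured core histone genes were lower and 5 higher (median -1.74), against 14.8% of probe sets lower. With the mean of all tested probe sets of a gene 19 fell and 7 rose, and with the ACTB covariate 19 fell and 5 rose. H3C2, H2BC14 and H4C13 led with differences of -7.06 (adjusted p = 2.95e-08), -6.91 (adjusted p = 3.20e-10) and -6.56 (adjusted p = 1.18e-08), and all 3 were below the 60th percentile on every senescent array, as were 11 of the 22, so the sizes of these falls may be cut short at the low end of the scale. S phase genes fell in 14 of 14 cases (median -3.48), with the proliferation marker MKI67 at -5.31 (adjusted p = 2.81e-09) and the replication genes CDC45 at -5.06 (adjusted p = 4.61e-10) and GINS2 at -4.01 (adjusted p = 1.09e-09). CDC45 and MCM5 were also below the 60th percentile on every senescent array, with the same limit on the size of their falls.

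**Figure D4:**
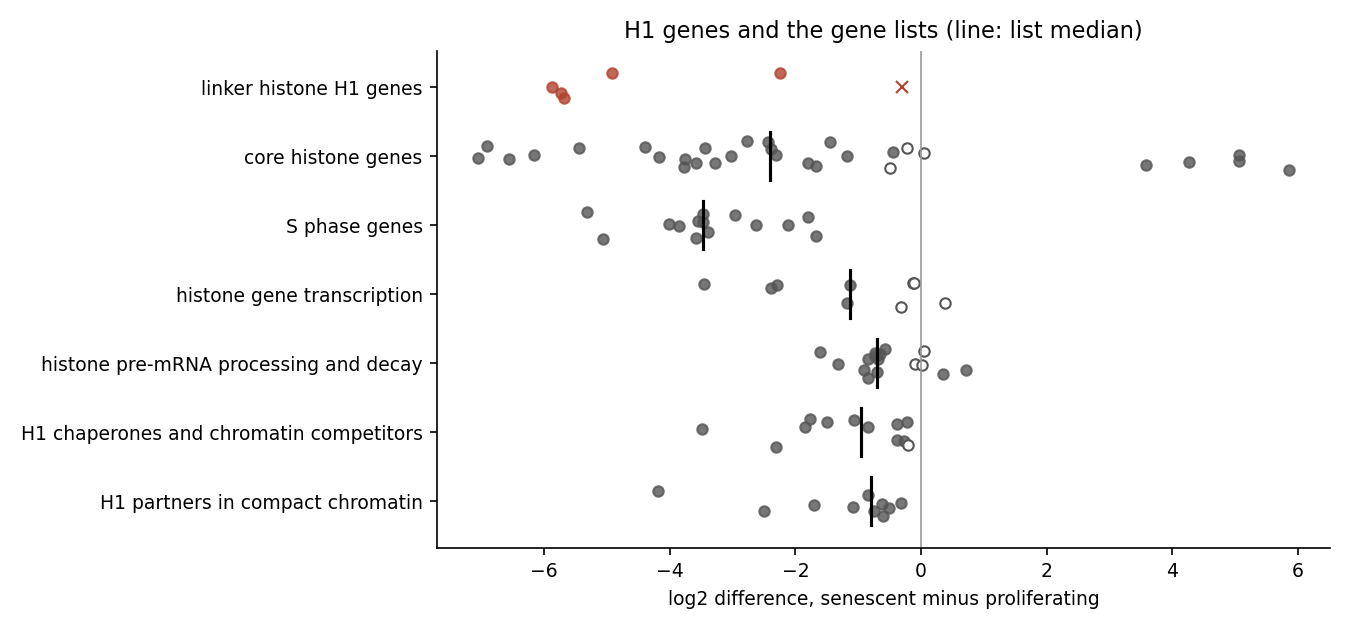
Log2 difference, senescent minus proliferating (horizontal axis), of the H1 genes (red, with H1-10 as a cross because it was not tested with the filter) and of the tested members of 6 gene lists (grey; open points did not pass limma's adjusted p of 0.05). Black lines are list medians; core histone genes run from -7.06 to 5.86, while every S phase gene lies below 0.

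Likeness of pattern was measured as the root mean square difference over the 10 arrays between genes centred on their own means. The genes most like H1-2 were NUDT1, which clears oxidised nucleotides (0.11), CCDC138 (0.12) and the H2B gene H2BC6 (0.13). The nearest other member, H1-4, ranked 9778th of all genes by this measure. The measure is not scaled by the size of a change. H1-2 and H1-4 both fell, with differences of -2.24 and -4.91, and that gap in size counts towards their distance. The rank therefore does not show that their directions or their array-to-array patterns differ. H1-3 was nearest to the mitotic kinase gene AURKB (0.21), the transcription factor gene FOXM1 (0.22) and IQGAP3 (0.25), and H1-5 to AURKB (0.32), H1-3 (0.33) and FOXM1 (0.36). For H1-1 these were AEBP1 (0.40) and the kinetochore genes SPC25 (0.42) and NUF2 (0.45), with H1-3 in rank 4, and for H1-4 the adaptor gene DOK5 (0.27), FAM83D (0.31) and the thymidine kinase gene TK1 (0.32). The distances are larger where a gene's own arrays scatter more, as for H1-1, and are given as a description.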

How the data were processed

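RNA extracted with Trizol was labelled with biotin and hybridised to Affymetrix arrays, per the labels' protocols. The authors deposited log2 values, 1 for each of 54675 probe sets on each of 10 arrays. Partek and GCRMA (which corrects background and summarises the probes of a set) are named without version or role, per the submitters' processing notes. How they were set is not given in the sources here. That the scale is log2 was read from the value range. The members and lists were chosen with earlier results of these data known.

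Probe sets were named from the platform annotation, brought to current symbols by gene identifier with the RefSeq table of GRCh38.p14, and all 6 members matched. The 62 control probe sets were left out of tests. Differences were tested with limma 3.58.1 (lmFit, eBayes) in R 4.3.3, with a threshold of 0.05 on Benjamini-Hochberg adjusted p. Scripts were tested on simulated data. Named genes were all members, the 3 largest called differences per list and the 3 genes of most similar pattern for each tested member. The comparison of H1 genes with their chromosome 6 neighbours, that of proliferating 2 with the other arrays, and genes said to be named later were chosen after values were seen. Low signal means below an array's 60th percentile. Deviations of same-numbered arrays from their state's mean correlated at -0.057 to 0.091, so replicate numbers were not taken as pairs. The alternatives covered a 60th percentile filter, no filter, 2 ways of centring, quantile normalisation, a replicate block, other eBayes settings, array weights, an ACTB covariate, gene means, exclusion of shared probe sets and leaving out arrays. Figures used matplotlib 3.10.9.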

Additional observations from a re-analysis of the deposited data

Results flagged for a closer look

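In a few groups of 5 arrays a single array stood apart from the others by a large share of the group's range, which chance gives in about 1 of 20 groups. This held for 5 of 78 groups looked at among the named genes. H1-1 was at 3.40 on senescent 4, against 5.11 to 5.57 on the other senescent arrays. ZNF473 was at 5.01 on senescent 5 (others 5.82 to 6.14), NASP at 10.09 on senescent 5 (others 10.50 to 10.65), H3C2 at 4.01 on senescent 2 (others 2.45 to 2.62) and FAM83D at 4.19 on senescent 3 (others 4.68 to 4.84).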

How the results depend on the processing

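The count of 5 H1 genes lower and 0 higher held under each of the 20 alternatives that were run for it, including the replicate block. Across them the difference was -6.10 to -5.48 for H1-1, -2.30 to -1.86 for H1-2, -5.78 to -5.23 for H1-3, -5.03 to -4.35 for H1-4 and -5.92 to -5.14 for H1-5, with adjusted p at most 6.52e-05. With the replicate block, H1-2 gave an adjusted p of 8.42e-06, and the block changed no call of an H1 gene. Of 534 recomputed values, 512 were counted as unchanged. Differences had to keep their direction and their side of the threshold, and counts had to stay within 1.5 times. H1-10, which had no adjusted p with the filter, had to move by less than its SD pooled over both states. Leaving out 1 array moved H1-3 minus H1-1 between -0.14 and 0.32, H1-5 minus H1-1 between -0.25 and 0.30, H1-3 minus H1-5 between -0.073 and 0.21, H1-4 minus H1-1 between 0.49 and 1.18 and H1-4 minus H1-5 between 0.72 and 0.96. The first 3 of these pairs changed sign and passed in no fit. H1-2 minus each other gene passed in every such fit, and H1-4 minus H1-3 too (0.63 to 0.88). Among genes of histone gene transcription, 1 instead of 0 was higher with array weights and without proliferating 2 and senescent 5 together, and leaving out 1 array gave 0 to 1. Without probe sets named as shared, fewer genes could be tested, and 5 of 5 H1 chaperone genes, 4 of 4 H1 partners, 13 of 21 core histone genes and 9 of 9 S phase genes were lower. Of these 21 core histone genes 5 were higher. Signal near the low end of the scale limits the sizes given for H1-4 and H1-5 and leaves no level to compare for H1-10. By the 60th percentile mark, senescent signal was also low for H1-3, with 1 of 5 senescent arrays above it. For H1-1, 4 of 5 lay above it. The sizes given for these genes may be limited as well.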
